A study of Drosophila melanogaster with 18 samples.

Results

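The sj266 line of Drosophila melanogaster is 1 of 6 mutant lines kept from a forward screen for genes that shape embryonic muscle, and its deposited list of variants called from embryo RNA is described here. The members are all distinct variants of that list, where a variant is 1 position with 1 reference and 1 alternative allele. After merging of repeated entries, 45 rows gave 38 distinct variants in 35 genes, out of 173 distinct variants in the 3 lists analysed (sj266, 38; sj440, 68; sj461, 67). Polyadenylated RNA came from whole embryos at stage 12, after 3 h of egg laying at 25 °C and 7 h of ageing. The embryos were homozygous for the mutant chromosome, sorted by hand against a fluorescent green balancer chromosome. The line has 2 samples, numbered as replicates, which the series' design text calls technical. The sj440 and sj461 lists came from homozygous embryos of the same stage. Each of these lines has 3 samples of 2 numbered replicates, since the titles divide 1 replicate into 2 numbered samples. What separates those 2 samples is not stated in the titles. No list of a parental stock was used here.

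A single list stands for all samples of a line, so no value below has a replicate error, and the read depth behind a call is unknown. All 45 rows had passed the authors' filter, and all lay on chromosome 2. The same held for the 82 rows of the sj440 list and the 75 rows of the sj461 list. The muscle phenotype of sj266 and any genetic mapping of its lesion were not used here, so no variant is singled out as the cause of a phenotype. The variants are described here as candidate lesions only. Of the 38, 6 were listed with the same position and alleles in sj440, and 32 were not found in either of the other lists analysed. The remaining lines, sj154, sj340 and sj287, were not compared here.

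The body wall muscles of the fly embryo arise from mesoderm that spreads and is patterned under signals that include FGFs acting through the receptor Heartless and the BMP Dpp. Myoblasts then fuse into fibres, which grow toward tendon cells and attach through a matrix that includes basement membrane proteins such as type IV collagen.

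Members of the in-frame class are shown first, because their alleles show what was added or removed, in several cases a unit of a short repeat. Of the 5 on arm 2L, 4 are printed on the plus strand of BDGP6, 5′ to 3′, with the added or removed bases in capitals. Because the bases repeat, the capitals mark 1 of several equivalent placements.
Tmtc2, alternative allele at chr2L:952951-952951: cAGC
CG44085, alternative allele at chr2L:13273751-13273751: cAGCAGC
B4, alternative allele at chr2L:13508817-13508822: gcccgaGCCCGA
pdm2, reference allele at chr2L:12660538-12660555: acagcagcagcagcaGCA
The alternative allele of pdm2 lacks the 3 bases in capitals. Tmtc2 gained 3 bases, and CG44085 and B4 gained 6 each.

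Missense changes were 13 of the 38 variants, and 4 of them held the 4 highest quality scores of the list. Quality here is the score that the authors' variant caller gave to a call, on a scale that the sources used here do not give. In bark, which encodes a transmembrane protein of the junctions where 3 epithelial cells meet, V1973I had a quality of 220 (codon Gtt to Att, 2L, position 3798149, in a gene that spans 3787167 to 3802726). In Oatp30B, a member of the organic anion transporter family, E881K had a quality of 215 (codon Gag to Aag, 2L, 9537639, gene 9521210 to 9540060). In Spt5, which with Spt4 forms a factor that controls pausing and elongation of RNA polymerase II, E225K had a quality of 213 (2R, 19438822, gene 19437483 to 19441898). In Tango1, an endoplasmic reticulum exit site protein that packages bulky cargo such as collagen, D770N had a quality of 207 (codon Gat to Aat, 2L, 6652058, gene 6649388 to 6654574).

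These 4 changes were all of the G-to-A type on the strand that reads like the RNA. In 3 of the 4, in Oatp30B, Spt5 and Tango1, an acidic residue was replaced by a basic or neutral one, while the bark change exchanged 1 aliphatic residue for another. The BLOSUM62 score, which is positive for exchanges seen often between related proteins, was 3 for V1973I of bark and 1 for each of E881K, E225K and D770N. The score describes the exchange of residues only, and no effect on a protein was measured.

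The other 9 missense changes had a quality of at most 90, so the gap between the 4 highest and the rest of this class was wide. G213D in CG11788 was the next, with a quality of 90 (2R, 20275387). The FGF ligand gene pyr, whose product signals through Heartless in the mesoderm, carried N264S with a quality of 63 (2R, 11724790, gene 11712263 to 11726345). C258R in CG17681 had a quality of 56 (2L, 18154300), and its BLOSUM62 score of -3 was the lowest of the list. It was followed by Q190R in CG15279 (2L, 14846877, quality 55).

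CG31897 was the only gene of the list with 2 missense changes, M79I (codon atG to atT, 2L, 8442879) and D991N (codon Gac to Aac, 2L, 8445613), both with a quality of 55. They lay 2734 bp apart near opposite ends of the gene, at 12.8% and 94% of its length from the 5′ end. In sj440 the same gene had M779I and G780S at adjacent bases, both with a quality of 26.4, so the lists hold different changes of this gene. The missense changes of lowest quality were S151G in CG10764 (38.4), D444E in ord, which acts in sister chromatid cohesion in meiosis (27.4), and M262V in CG30091 (26.4). The changes in pyr, CG15279, CG10764 and CG30091 were of the A-to-G type on the RNA strand. All calls came from RNA, and whether these changes are present in genomic DNA was not tested.

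Over the 13 missense changes, BLOSUM62 scores were positive for 10, 0 for 1 and negative for 2. The positive scores numbered 14 of 38 missense changes in sj440 and 16 of 44 in sj461. The charge of the residue changed in 7 of 13, against 5 of 38 and 15 of 44 in the other lists. In 6 of the 7 the new residue was more positive, and G213D of CG11788 was the exception. Both features were examined after the changes had been seen, and the differences between lists were not tested.

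**Figure D1:**
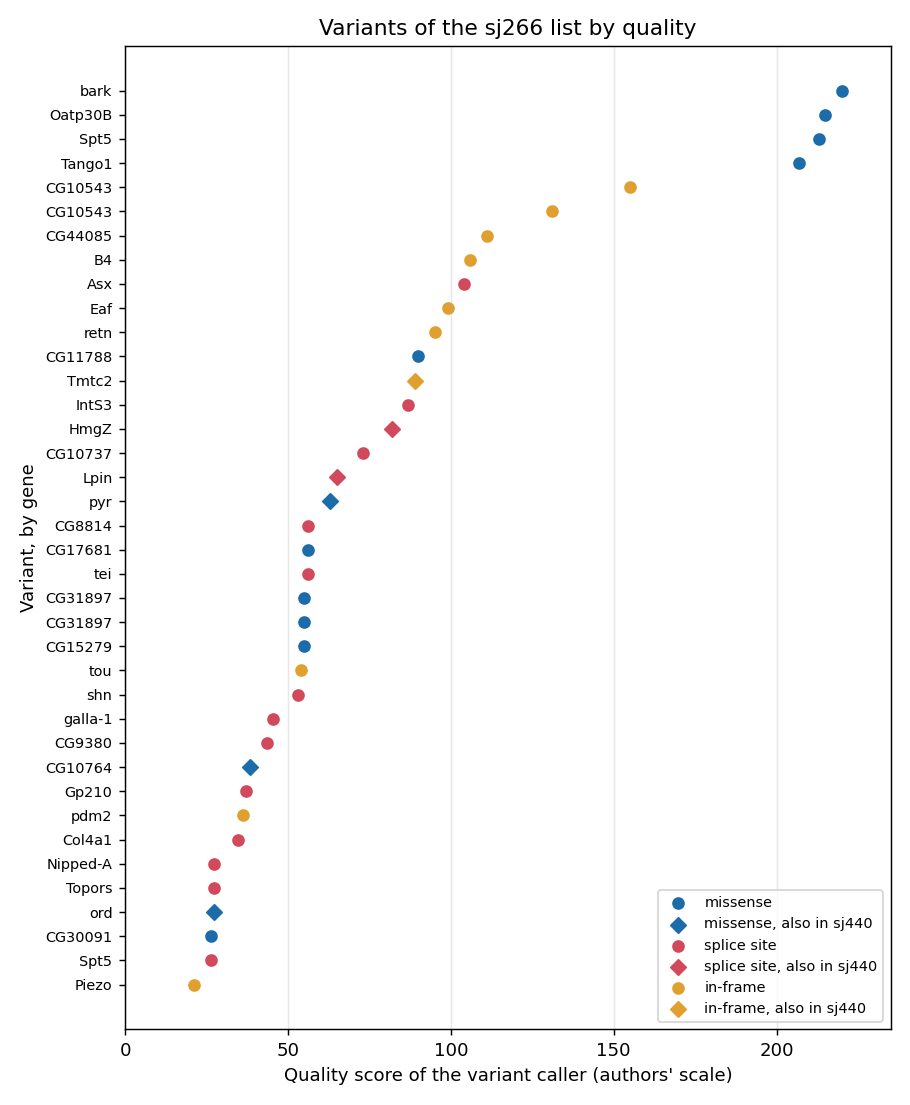
Quality score of each of the 38 distinct variants of the sj266 list (horizontal axis, on the authors' scale), ordered from highest to lowest and named by gene. Colours give the class, and diamonds mark the 6 variants listed identically in sj440. The 4 missense changes in bark, Oatp30B, Spt5 and Tango1 lie above 200, and the next variant, in CG10543, lies at 155.

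Splice-site variants were 15 of the 38, with 9 at donors and 6 at acceptors, and their quality ran from 26.4 to 104 with a median of 53. Every one changed a base of the invariant dinucleotide at the intron's end, as the annotation defines the class. The first intron base was changed in 7, the second in 2, the second-last in 3 and the last in 3. Spliced RNA lacks these bases, and which reads the calls came from is unknown. No effect on splicing was measured.

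The splice-site variants of highest quality lay in Asx, IntS3 and HmgZ. Asx, a Polycomb group gene whose product belongs to a histone H2A deubiquitinase, had a quality of 104 for an A-to-T change at the second-last base of an intron (2R, 14507255, gene 14503958 to 14512493). IntS3, a subunit of the Integrator complex that cleaves nascent RNAs, had a G-to-A change at an acceptor with a quality of 87 (2R, 4236363, gene 4235779 to 4242934). HmgZ, a DNA-bending protein of the HMG box family, had a G-to-C change at a donor with a quality of 82 (2R, 21704322). That position also lies inside the interval of HmgD, a related HMG box gene, and it was the only one of the 38 that fell within a second annotated gene. Whether reads of these related neighbours were told apart was not tested.

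Lower in the same class, the Tra1 homologue Nipped-A, a scaffold of histone acetyltransferase complexes, had a T-to-A change at the second base of a donor (2R, 5185573, quality 27.4). Topors, a ubiquitin ligase of the nucleus, had a G-to-A change at the first base of a donor (2R, 18973723, quality 27.4). Spt5 had a G-to-A change at an acceptor (2R, 19438784, quality 26.4), 38 bp upstream of its E225K, so that the same gene held both 1 of the highest and 1 of the lowest scores. The nucleoporin gene Gp210 had a G-to-A change at an acceptor (2R, 5764830, quality 37.1).

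Signalling and matrix genes with splice-site variants were few. In shn, which encodes a zinc finger protein that represses brk with the Dpp effectors Mad and Medea, a donor had a G-to-A change at its first base (2R, 11214200, quality 53). This lies at 94.5% of the gene from its 5′ end (11159086 to 11217394). In Col4a1, which encodes a chain of type IV collagen, an acceptor had an A-to-G change at the second-last base (2L, 5032498, gene 5029609 to 5037279, quality 34.7). Col4a1 and Tango1 lay 1.62 Mb apart as neighbours in the list.

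The remaining splice-site variants lay in Lpin, a phosphatidate phosphatase of lipid synthesis (donor, quality 65, 2R, 8141889), and in CG10737 (donor, 73), CG8814 (donor, 56), tei (acceptor, 56), galla-1 (donor, 45.3) and CG9380 (donor, 43.4). On arm 2L there were 2 splice-site variants, in CG8814 and Col4a1, and on 2R there were 13. The sj440 list had 10 on each arm and the sj461 list 7 on 2L and 5 on 2R.

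In-frame insertions and deletions numbered 10, with 8 insertions and 2 deletions, and their median quality was 97 (range 21.2 to 155). CG10543 gained 4 glutamines at residue 1437 (2R, 21005650, quality 155). The same insertion of 12 bases was written again 2 bp away with a quality of 131. With it counted once the class held 9 variants in 9 genes. CG44085 gained 2 glutamines before a proline at residue 623 (quality 111), and B4 gained a serine and a glycine at residues 315 to 316 (quality 106). In sj440, CG44085 had other in-frame insertions, listed at residues 401 to 402 with a quality of 127 and 131.

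Eaf, a partner of the elongation factor ELL, lost 1 glutamine from a run listed with 7 (residues 411 to 418, 2R, 7398657, quality 99). The ARID domain transcription factor gene retn, also known as dead ringer, gained a glycine and a valine in a repeat of that pair (residues 894 to 897, 2R, 23653776, quality 95). The chromatin remodelling gene tou gained 1 glycine in a run listed with 3 (residues 846 to 848, 2R, 11588880, quality 54). The POU domain factor gene pdm2 lost 1 alanine of a run listed with 5 (residues 25 to 30, quality 36.3), which is the allele printed above.

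Tmtc2, listed as CG4341, gained 1 serine between residues 476 and 477 (quality 89). Its human relatives attach mannose to cadherins. Piezo, a channel opened by mechanical force, had the lowest quality of the list, 21.2. Glutamine was the residue added or lost in CG10543, CG44085 and Eaf.

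The classes were compared between the lists by two-sided Fisher's exact tests of the counts of distinct variants, adjusted over 6 tests by the Benjamini-Hochberg method. These tests compare 3 lists, not replicated lines. They treat each variant as independent, although variants of 1 chromosome are inherited together. Missense changes were 34.2% of the sj266 list (exact 95% interval 19.6 to 51.4), 55.9% of the sj440 list (43.3 to 67.9) and 65.7% of the sj461 list (53.1 to 76.8). The share in sj266 was lower than in sj461 by Fisher's exact test (odds ratio 0.275, 95% interval 0.107 to 0.679, adjusted p = 0.0139). Against sj440 the same exact test did not pass (odds ratio 0.414, 0.164 to 1.01, adjusted p = 0.0856). That difference, -21.7 percentage points, turned to 2.35 among variants with a quality of 50 or more. Without A-to-G changes it passed Fisher's exact test (9 of 33 against 35 of 65, adjusted p = 0.0354). That setting took out 4 of the 13 missense changes of sj266 and 3 of the 38 of sj440, which by itself widens the difference. The difference from sj461 was not called among variants with a quality of 50 or more (10 of 26 against 25 of 42, adjusted p = 0.694, Fisher's exact test). It was not called either without variants within 100 bp of another (adjusted p = 0.0839, Fisher's exact test).

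Splice-site variants, such as those in Asx, IntS3 and shn, made up 39.5% of the sj266 list (exact 95% interval 24 to 56.6). Their share was 29.4% (19 to 41.7) for sj440 and 17.9% (9.61 to 29.2) for sj461. Neither Fisher's exact test passed after adjustment, with an odds ratio of 1.56 (0.621 to 3.89, adjusted p = 0.389) against sj440 and 2.96 (1.1 to 8.14, adjusted p = 0.0612) against sj461. Among variants with a quality of 50 or more the difference from sj440 turned from 10.1 to -8.12 percentage points. The difference from sj461, 21.6 percentage points, was 14.1 among variants with a quality of 50 or more (adjusted p = 0.694, Fisher's exact test). It was 15.6 without variants within 100 bp of another (adjusted p = 0.186, Fisher's exact test). Without A-to-G changes the difference from sj461 passed Fisher's exact test (14 of 33 against 12 of 65, adjusted p = 0.0354). That setting took out 5 variants of sj266, 4 of them missense, and 2 of sj461, which by itself raises the sj266 share. In-frame changes made up 26.3% of the sj266 list (exact 95% interval 13.4 to 43.1). Their share was 13.2% (6.23 to 23.6) for sj440 and 13.4% (6.33 to 24) for sj461. Their odds ratios by Fisher's exact test were 2.32 (0.753 to 7.28) and 2.28 (0.74 to 7.16), both with an adjusted p of 0.142. As with the missense shares, these tests treat linked variants as independent and compare 3 lists, not replicated lines. The 6 variants common to sj266 and sj440 are counted in both lists.

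**Figure D2:**
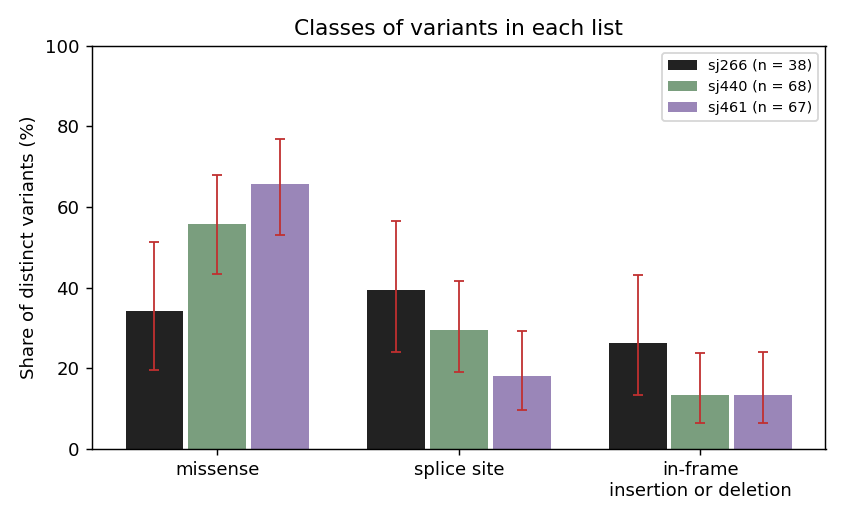
Share of the distinct variants of each list (vertical axis, percent) that were missense, splice-site or in-frame changes, with 38 variants in sj266, 68 in sj440 and 67 in sj461. Bars give the share and error bars its exact 95% interval, which covers counting error only. The missense share lies at 34.2% in sj266 and at 65.7% in sj461.

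Every one of the 11 changes in sj266 that turned a G:C into an A:T pair was of the G-to-A type on the RNA strand, and C-to-T changes numbered 0. At splice sites this is set by the invariant bases, which include no C, and the 5 of the 11 in IntS3, shn, Gp210, Topors and Spt5 are of this kind. The informative ones are the 6 coding changes, in bark, Oatp30B, Spt5, Tango1, CG11788 and CG31897. Coding G-to-A and C-to-T changes numbered 5 and 7 in sj440, and 11 and 1 in sj461. All 6 sj266 genes lie on the plus strand, so that RNA strand and plus strand cannot be told apart for them. Of the 13 coding single-base changes of sj266, 11 lay in plus-strand genes and 2, in CG15279 and ord, in minus-strand genes. The plus-strand and minus-strand counts were 23 and 16 in sj440, and 29 and 17 in sj461. The strand was examined after the changes had been seen, and these counts were not tested.

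The variants were spread over both arms. On 2L, 14 variants in 13 genes ran from Tmtc2 to CG17681 over 17.2 Mb, and on 2R, 24 variants in 22 genes ran from IntS3 to CG9380 over 21 Mb. The median distance between neighbours on an arm was 879 kb over 36 distances, against 380 kb over 66 in sj440 and 335 kb over 65 in sj461. The sj266 list is shorter, which by itself widens the spacing. Distances over 1 Mb numbered 16 of 36.

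The longest stretch between neighbours was 3.31 Mb, between CG15279 and CG17681 on 2L. Stretches of 3.12 Mb between Oatp30B and pdm2 and of 3.07 Mb between Lpin and shn came next. Only 3 distances were below 100 kb, and all were within a gene: 2 bp in CG10543, 38 bp in Spt5 and 2734 bp in CG31897. Between different genes the closest pair was tou and pyr, 136 kb apart on 2R, followed by Topors and CG10737 at 199 kb. Of the best-scored changes, bark and Tango1 lay 2.85 Mb apart and Tango1 and Oatp30B 2.89 Mb apart on 2L, and Spt5 lay on the other arm.

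**Figure D3:**
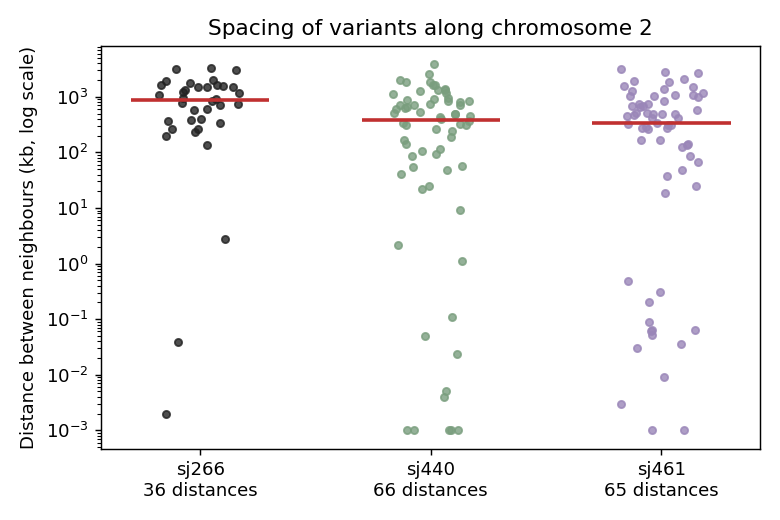
Distance from each variant position to the next on the same arm (vertical axis, kb, log scale) for the 3 lists, with each point a distance and the red line the median of a list. The median is 879 kb in sj266, 380 kb in sj440 and 335 kb in sj461, and sj266 has 3 points below 100 kb.

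Within genes, positions were measured from the 5′ end as a percentage of the gene's interval, introns included. The median over the 38 variants was 70.5%, with 17 variants beyond 75% of their gene and 3 within the first 25%, in pdm2, CG31897 and Topors. The sj440 list had a median of 60.4% with 23 of 68 variants beyond 75%, and the sj461 list a median of 62.8% with 25 of 67. Within the first 25% lay 14 of 68 variants in sj440 and 16 of 67 in sj461, and these differences were not tested. In bark the change lay at 70.6% of the gene, in Oatp30B at 87.2%, in Spt5 at 30.3% and in Tango1 at 51.5%. Protein lengths were not used here, so the residue numbers above could not be set against the length of each protein.

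The 4 missense changes named first had a quality above 200, and no variant lay between 155 and 207. Scores above 200 were not particular to sj266, with 6 such variants in the sj440 list and 1 in the sj461 list. With limits set at 100 and 50, where the scores show no break, 5 variants of sj266 lay between 100 and 200 (both CG10543 entries, CG44085, B4 and Asx). Another 17 lay between 50 and 100, and 12 below 50. The median over the list was 56 (95% order-statistic interval 53 to 89), with 52 (43.4 to 57) for sj440 and 63 (55 to 69) for sj461. The median was 56 for missense, 53 for splice-site and 97 for in-frame variants of sj266. The in-frame class had the highest median in the other lists too. In sj440 the medians were 41.4, 53.5 and 131 in the same order, and in sj461 57, 56 and 121. Below 50 in sj266 lay the variants of galla-1, CG9380, CG10764, Gp210, pdm2, Col4a1, Nipped-A, Topors, ord, CG30091 and Piezo, and the acceptor of Spt5.

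The 6 variants common to sj266 and sj440 lay in Tmtc2, HmgZ, Lpin, pyr, CG10764 and ord. The 5 on 2R spanned from Lpin to ord, and Tmtc2 lay on 2L. None of them reached a quality of 100 in sj266, where their median was 64 (range 27.4 to 89), and the 32 other variants had a median of 56 (range 21.2 to 220). In sj440 the score was higher for Tmtc2 (89 in sj266, 157 in sj440), Lpin (65 and 104), pyr (63 and 72) and CG10764 (38.4 and 39.4). It was lower for HmgZ (82 and 30.4) and equal for ord (27.4 in both). The scale of the score is unknown and the lists rest on different numbers of samples, so these values are set side by side only. None of the 5 single-base changes in common was a G:C to A:T change, and all 11 such changes of sj266 were absent from the other 2 lists. In sj461 no identical variant was found, and tou was the only gene of sj266 hit there, by a donor change with a quality of 68 in place of the in-frame insertion.

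**Figure D4:**
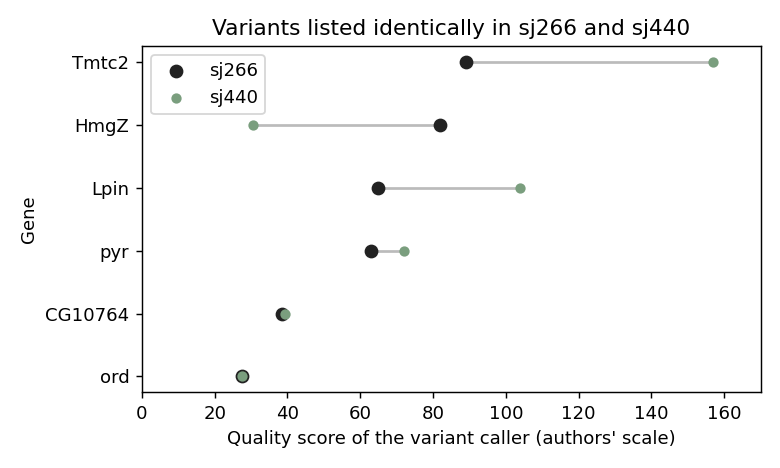
Quality score (horizontal axis, on the authors' scale) in sj266 and in sj440 of the 6 variants listed identically in both, named by gene. The points of ord coincide at 27.4, Tmtc2, Lpin, pyr and CG10764 score higher in sj440, and HmgZ scores higher in sj266.

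Pathway lists were used to describe the neighbourhood of these genes, by counts and without a test. Over all 5508 protein-coding genes of chromosome 2, 35 held a sj266 variant, which is 0.635%. In the list of transcription elongation factors and Integrator subunits, 3 of 11 genes on chromosome 2 were hit (Spt5, Eaf and IntS3). In the list of basement membrane and collagen secretion, 2 of 8 were hit (Col4a1 and Tango1). FGF signalling through Heartless had 1 of 7 (pyr), Dpp and BMP signalling 1 of 8 (shn), the Polycomb group 1 of 6 (Asx), and septate and tricellular junctions 1 of 7 (bark). Myoblast fusion had 0 of 7, and muscle attachment and guidance 0 of 10. The lists were drawn up with the hit genes already known, so the counts are no evidence that sj266 hits any of these pathways. In sj440, the elongation and basement membrane lists had 0 hits, FGF signalling had pyr by the same variant, and the Polycomb group had Psc and Su(z)2. In sj461 all of these lists except muscle attachment and guidance, with robo2, had 0 hits. Over all 5508 genes, 55 (0.999%) held a sj440 variant and 53 (0.962%) a sj461 variant.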

How the data were processed

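Per the submitters' processing notes, the tools included STAR 2.5.4b and cutadapt 2.4, with the BDGP6 build and no role or order stated. The sources used here do not give how variants were called, filtered and annotated. For each line, a list was deposited by the authors with a quality score and an annotated consequence per variant. It holds no read depth, so precision is unknown. Each list was assigned to its line by worksheet name. All 35 genes of sj266 matched RefSeq's Release 6 plus ISO1 MT table (Tmtc2 and tei by a synonym), with each of the 38 positions inside its gene. The listed codons of all 98 coding single-base changes in the 3 lists gave the listed residues. Positions count from 1 on BDGP6, and residues from 1 at the start of the annotated protein.

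Class shares were compared with Fisher's exact tests at an adjusted p of 0.05. A check on simulated counts used independent variants and unadjusted p-values only. It therefore does not cover linked variants, variants shared between lists or the adjusted threshold. Every gene of sj266 is named. Members, gene lists and tests were chosen with earlier results of these data known. Alternatives were a quality of 50 or more, equivalent insertions or deletions (30 bp) counted once, and the removal of shared variants, of variants within 100 bp of another, or of A-to-G changes. The work used scipy 1.17.1, matplotlib 3.10.9, Biopython 1.88, numpy 2.4.6 and pandas 2.3.3 under Python 3.11.15. The allele of 1 in-frame variant is not reported here.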

Additional observations from a re-analysis of the deposited data

How the results depend on the processing

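No paired analysis was possible because each line has 1 list over its samples, and for the same reason no replicate could be left out. With a quality of 50 or more, the missense share of sj266 minus that of sj440 turned from -21.7 to 2.35 percentage points and the splice-site share from 10.1 to -8.12, neither called. At that limit the missense difference from sj461 was -21.1 points (adjusted p = 0.694, Fisher's exact test), and 3 variants were identical in sj266 and sj440 (Tmtc2, Lpin and pyr). Without variants within 100 bp of another, the missense difference from sj461 was -28.5 points (adjusted p = 0.0839, Fisher's exact test). Both settings leave fewer variants (26 and 34 of 38 in sj266). Without A-to-G changes, the missense difference from sj440 of -26.6 points and the splice-site difference from sj461 of 24 points passed Fisher's exact test (adjusted p = 0.0354 each). Of the 5 A-to-G changes of sj266, 4 were missense, so the removal itself moves both shares. Of the other 47 values, those with a test kept their direction and side of the threshold, and the medians and the share of G:C to A:T changes stayed within their interval. The median quality still rose from 56 to 88 at a quality of 50 or more, where the limit acts on the score itself. The number of distinct variants ranged from 26 to 38. The median relative position in the protein was planned but not run, since protein lengths were not used here. Depth is unknown, so its limit on single calls cannot be given.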
